A study of Drosophila melanogaster with 30 samples.

Results

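The genes described here are kn, lbe and lbl, found by their symbols in both expression tables, 3 genes of the 14040 listed at embryonic stage 16 (St16) and of the 14077 listed at the later stage of air-filled trachea (AFT). The gene kn (knot, also called collier or col) encodes a transcription factor of the COE family, whose vertebrate members are the Olf/EBF factors. The genes lbe (ladybird early) and lbl (ladybird late) encode a pair of related homeodomain factors. All are selector genes, which set the identity of particular neurons and muscles. In the nerve cord, col acts within the cascade that specifies Apterous neurons, where it lies upstream of ap, eya and dimm, and ladybird genes mark a subset of neuroblast lineages. In the body wall and heart, col and the ladybird genes each mark particular muscle or cardiac precursors. In larval sensory neurons, kn is a known regulator of the class IV dendritic arborization type.

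The study sequenced RNA of whole fruit fly (Drosophila melanogaster) embryos in 30 samples, 3 biological replicates for each of 5 genotypes at each stage, from collections of more than 200 embryos. Every genotype carried elav-Gal4, a driver that is active in neurons, mostly after their last division. In the col genotype the driver stood over UAS-col-HA, in lbe over UAS-myc-lbe, and in col + lbe over a chromosome with both UAS-col-HA and UAS-myc-lbe. The ap + eya genotype carried UAS-Flag-Ap over a wild-type chromosome and elav-Gal4 over UAS-eya-HPC4, and the control carried elav-Gal4 over OregonR with no UAS transgene. No transgene for lbl was used in any of them. The values are the authors' means in TPM, a transcript abundance scaled by transcript length and library total, and there is 1 mean per genotype and stage. The spread between replicates was not used here, so no difference below has a test, an SD or a p-value. "Higher" and "lower" describe these means, and values that lie close in order cannot be ranked against replicate error.

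Differences are given as log2(TPM + 1) in the misexpression minus the control, a scale on which differences between small TPM values are compressed. A gene was compared where it reached 1 TPM in either group, and it was counted as 2-fold apart at a difference of at least 1 on that scale. All 4 misexpressions of a stage share 1 control mean, and each stage is a table of its own. The control mean was the highest of the 5 genotypes for 35.1% of the genes that reached 1 TPM at St16, and for 27.3% at AFT. As a check of the whole-embryo label, all 5 neuronal, both glial, all 4 muscle and both epidermal and tracheal markers reached 1 TPM in the control at both stages, while neither fat body marker, Fbp1 or Lsp2, did at either stage. Of the 2 haemocyte markers, Pxn did at both stages and Hml at AFT alone. The gut markers betaTry and Jon25Bii, a pair of digestive protease genes, were below 1 TPM in the St16 control, where Jon25Bii was listed at 0, and their sum at St16 was between 0.493 and 1.86 TPM in the 5 genotypes. At AFT the gut markers summed to 826 TPM in col, 368 TPM in lbe, 1489 TPM in col + lbe and 621 TPM in ap + eya, against 98.4 TPM in the control. Every difference at AFT given below, from the control or between misexpressions, stands beside these differences in gut markers, whose part was not tested. In whole-embryo RNA, fewer cells of a type and less RNA per cell cannot be told apart.

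The 3 genes differ in size and structure. On the BDGP6.54 annotation, kn (FBgn0001319) lies on the minus strand of chromosome 2R from 14772650 to 14807061 and has 5 transcripts. The gene lbe (FBgn0011278) lies on the minus strand of 3R from 21441577 to 21446537, with 1 transcript of 2277 bases in 2 exons. Its neighbour lbl (FBgn0008651) lies on the same strand from 21409979 to 21434133, with 3 transcripts of 1758 to 1855 bases, and 7443 bases separate the pair. Native and transgenic RNA of kn and lbe cannot be told apart in these gene-level values.

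The driven genes stood far above the control in every genotype that carried their transgene, and lbe, whose control level was close to 0, differed more than kn. At St16, kn was at 92.4 TPM in col and 81.0 TPM in col + lbe, against 25.9 TPM in the control. At AFT, kn was at 43.4 TPM in col and 104 TPM in col + lbe, against 12.4 TPM in the control. Both driven genotypes were thus above the other 3 at each stage, with col the higher of the pair at St16 and col + lbe at AFT. The log2 difference of kn from the control was 1.80 in col and 1.61 in col + lbe at St16, and 1.73 in col and 2.98 in col + lbe at AFT. Genes 2-fold higher made up 0.286% of those compared in col and 0.428% in col + lbe at St16, and 1.91% in col and 3.33% in col + lbe at AFT. By size, kn ranked 8 from the highest of 9799 genes in col at St16, but 80 of 9984 in col at AFT.

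The gene lbe was at 61.2 TPM in lbe and 68.2 TPM in col + lbe at St16, against 0.0633 TPM in the control. At AFT it was at 48.9 TPM in lbe and 88.0 TPM in col + lbe, against 0.0488 TPM in the control. No other gene had a larger difference from the control in lbe or col + lbe at either stage: the log2 difference of lbe was 5.87 in lbe and 6.02 in col + lbe at St16, and 5.57 in lbe and 6.41 in col + lbe at AFT. Genes 2-fold higher in lbe made up 0.255% of those compared at St16 and 1.48% at AFT. Without a driven transgene, lbe was a gene of very low level in these embryos, and 15.0% of all listed genes lay below it in the St16 control and 14.5% in the AFT control. The corresponding shares were 54.4% and 46.7% for lbl and 74.1% and 62.8% for kn.

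**Figure D1:**
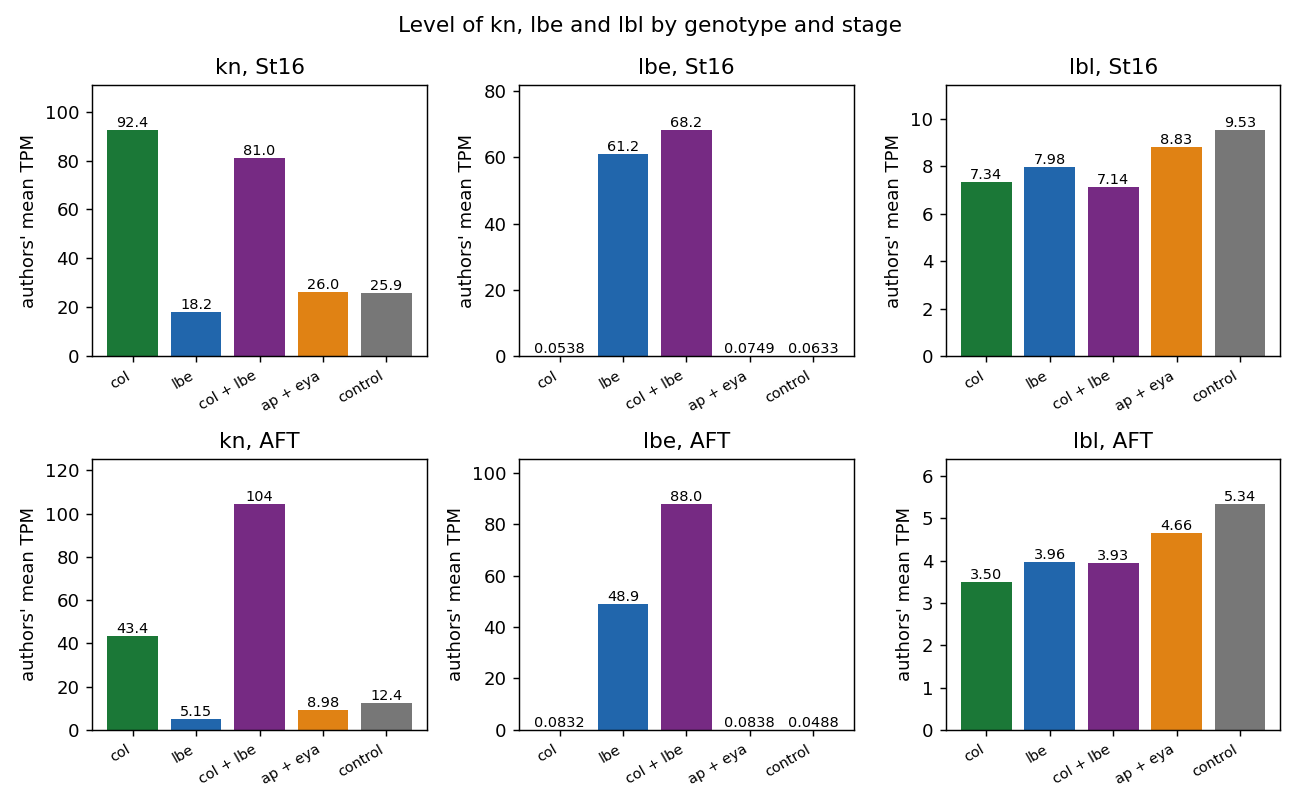
Level of each gene in the authors' mean TPM (y axis, linear, own scale in each panel) for the 5 genotypes (x axis) at St16 (upper row) and AFT (lower row); bars are means with no error bars because single replicates were not used. For kn the highest bar is col at St16 (92.4) and col + lbe at AFT (104) with the lowest in lbe at both stages, lbe stands at 48.9 or more only in its 2 driven genotypes, and lbl is highest in the control at both stages (9.53 and 5.34).

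The level of the driven genes above the control was lower at AFT than at St16 in col, lbe and ap + eya, and higher in col + lbe. Set against the control of the same stage, the excess of kn in col was 66.5 TPM at St16 and 31.0 TPM at AFT, and that of lbe in lbe was 61.1 and 48.9 TPM. In col + lbe both genes had a larger excess at AFT, with kn at 55.1 and 92.1 TPM above the control and lbe at 68.1 and 87.9 TPM. The excess at AFT was 0.467 of that at St16 for kn in col and 0.800 for lbe in lbe, but 1.67 for kn and 1.29 for lbe in col + lbe. The other pair of driven genes, ap and eya, encode a LIM-homeodomain factor and a transcriptional cofactor with phosphatase activity, and in ap + eya their excess at AFT was 0.325 and 0.299 of that at St16. In col + lbe, the only genotype with both transgenes, the excess of lbe was 1.24 times that of kn at St16 and 0.955 times at AFT. These stage ratios are set across separately made tables and across single-read and paired-read libraries, which cannot be told apart from the stage.

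**Figure D2:**
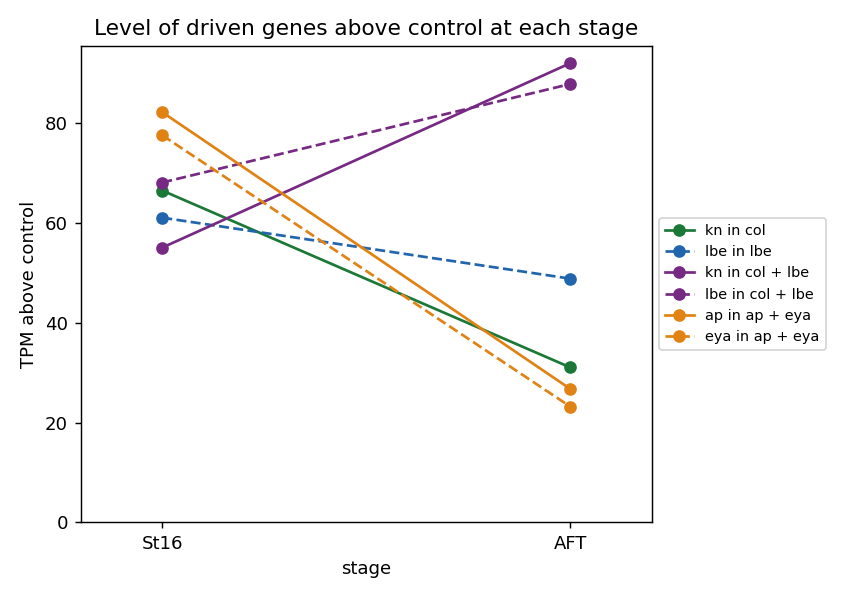
Excess over the control of the same stage in TPM (y axis, from 0) at St16 and AFT (x axis) for each driven gene; colours mark genotypes, solid lines kn or ap and dashed lines lbe or eya, and each point is a difference of 2 means. Both col + lbe lines go up, to 92.1 and 87.9 TPM, and the 4 lines of the other genotypes go down, to between 23.2 and 48.9 TPM.

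The level of kn differed little between col + lbe and col at St16 and by more than 2-fold at AFT. Set directly against col, kn in col + lbe differed by -0.19 on the log2 scale at St16 and by 1.25 at AFT, where the TPM ratio was 2.41. Genes 2-fold higher in col + lbe than in col made up 0.216% of those compared at St16 and 1.70% at AFT, where kn ranked 91 from the highest of 10007. The median of all genes in that comparison at AFT was 0.19, and relative to it kn was at 1.06. For lbe, col + lbe against lbe differed by 0.16 at St16 and 0.83 at AFT, neither of them 2-fold, where 0.287% and 2.80% of genes were 2-fold higher. The non-additive value of kn, which is its log2 difference between col + lbe and col less its log2 difference between lbe and the control, was 0.30 at St16 and 2.37 at AFT. A non-additive value of at least 1 was seen in 0.414% of genes at St16 and in 6.21% at AFT, where the median over all genes was 0.31 and kn ranked 35 from the highest of 10187. The 5 neuronal markers, elav, nSyb, brp, fne and Syt1, summed to 252 TPM in col + lbe at AFT, against 215 TPM in col. Their sum in the other groups at AFT was 192 TPM in lbe, 211 TPM in ap + eya and 210 TPM in the control, and its part in the kn and lbe values was not tested. At St16 that sum was also highest in col + lbe, at 387 TPM against 306 TPM in col, where the kn level was the lower of the pair. The markers did not differ alike. At St16 fne was at 195 TPM in col + lbe and 126 TPM in col, and nSyb at 109 and 106 TPM. At AFT fne was lower in col + lbe, at 70.6 TPM against 83.8 TPM in col, while nSyb was at 105 against 69.3 TPM.

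The next question was whether either factor differed where only the other was driven. The level of kn was lowest in lbe at both stages. It was at 18.2 TPM in lbe at St16, against 25.9 TPM in the control, a log2 difference of -0.49 that is not 2-fold. At AFT it was at 5.15 TPM in lbe, against 12.4 TPM in the control, a log2 difference of -1.12 and a TPM ratio of 0.416. The lbe embryos carry no col transgene, so their kn level is that of the native gene. Genes 2-fold lower in lbe made up 0.275% of those compared at St16 and 1.99% at AFT, and 1.72% at AFT among genes of 5 to 50 TPM in the control. At AFT kn ranked 141 from the lowest of 9990 genes, and at St16, with the smaller difference, it ranked 230 from the lowest of 9808.

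The lower kn in lbe at AFT lay near the 2-fold limit. The median of all genes in lbe against the control at AFT was -0.13, and relative to it kn was at -0.99. Median-ratio rescaling moved that median by 0.12 and gave -1.01 for kn, and a pseudocount of 5 gave -0.78. The level in ap + eya at AFT was itself 8.98 TPM, and with ap + eya in place of the control the log2 difference of kn in lbe was -0.70. At St16, where ap + eya (26.0 TPM) and the control (25.9 TPM) stood side by side, kn in lbe was at -0.49 against either.

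In the opposite direction, lbe was near 0 wherever it was not driven. Its level was 0.0538 TPM in col and 0.0749 TPM in ap + eya at St16, against 0.0633 TPM in the control. At AFT it was 0.0832 TPM in col and 0.0838 TPM in ap + eya, against 0.0488 TPM in the control. None of these groups reached the 1 TPM needed for comparison, and no counts were given from which a difference at this level could be judged.

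The paralogue lbl was lower in all 4 misexpressions than in the control at both stages, by less than 2-fold and also after median-ratio rescaling. Genes 2-fold lower made up 0.337% of those compared in col and 1.99% in col + lbe at St16, and 2.37% in col and 4.02% in col + lbe at AFT. At St16 it was at 7.34 TPM in col, 7.98 TPM in lbe, 7.14 TPM in col + lbe and 8.83 TPM in ap + eya, against 9.53 TPM in the control. At AFT it was at 3.50 TPM in col, 3.96 TPM in lbe, 3.93 TPM in col + lbe and 4.66 TPM in ap + eya, against 5.34 TPM in the control. The highest and lowest of the 5 levels were 1.33-fold apart at St16 and 1.53-fold at AFT. The log2 differences lay between -0.37 in col + lbe and -0.10 in ap + eya at St16, and between -0.50 in col and -0.16 in ap + eya at AFT. In ap + eya the direction turned when the median of the other 4 genotypes replaced the control, to 0.18 at St16 and 0.19 at AFT. A control mean above all 4 misexpressions at both stages was seen in 13.0% of the 9384 genes that reached 1 TPM at both, so lbl is 1 of 1221 such genes.

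Driving lbe brought no higher value for lbl. In lbe embryos lbl was 1.54 TPM below the control at St16 and 1.38 TPM below it at AFT, while lbe was 61.1 and 48.9 TPM above. Whether reads are shared between lbe and lbl was not tested. Set against each other, col + lbe and lbe differed in lbl by -0.14 at St16 and -0.01 at AFT. From St16 to AFT the ratio of the lbl level lay between 0.476 in col and 0.560 in the control, a narrow range beside that of kn, whose ratio was 0.283 in lbe, 0.345 in ap + eya, 0.470 in col and 1.29 in col + lbe, against 0.478 in the control.

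The pair lbe and lbl belongs to a cluster of homeobox genes on 3R, with tin and bap, which act in heart and gut muscle, on one side, and C15 and slou on the other. Of the 5 members other than lbe compared at St16, slou in col + lbe was the single one 2-fold apart in any misexpression. It was at 34.6 TPM in col + lbe at St16, against 10.2 TPM in the control, and at 37.1 TPM in col + lbe at AFT, against 4.25 TPM in the control. Over all genes, 0.428% were 2-fold higher in col + lbe at St16 and 3.33% at AFT. The gene C15 was lower in all 4 misexpressions, most so in lbe at AFT with 2.33 TPM, against 5.29 TPM in the control (log2 difference -0.92). The gene bap was at 2.45 TPM in lbe at AFT, against 4.86 TPM in the control (-0.77). Without lbe itself, the cluster had a median log2 difference of -0.56 over 4 members compared in lbe at AFT, where all genes had -0.13, and of -0.18 over 5 at St16, where all genes had -0.07. The cluster median was below that of all genes in the other misexpressions too. At AFT it was -0.45 in col (all genes -0.10), -0.38 in col + lbe (0.11) and -0.27 in ap + eya (-0.11). At St16 it was -0.11 in col (all genes -0.08), -0.26 in col + lbe (-0.05) and -0.10 in ap + eya (-0.02).

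**Figure D3:**
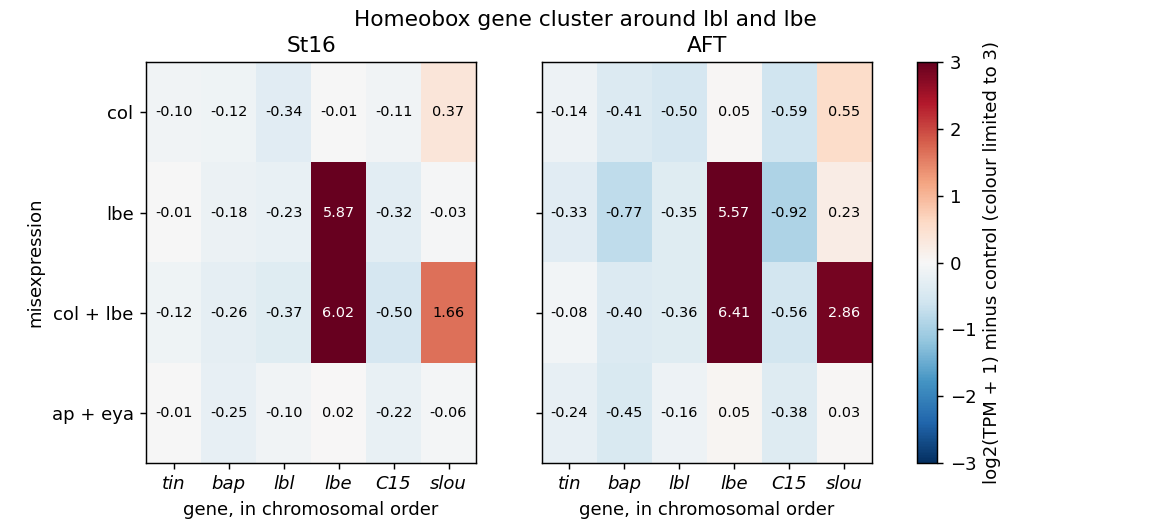
Difference from the control in log2(TPM + 1) (numbers and colours, red higher and blue lower, colour limited to 3) for 6 homeobox genes in chromosomal order (x axis) in each misexpression (y axis) at St16 and AFT. Apart from the driven lbe, slou in col + lbe (1.66 and 2.86) is the single entry beyond 1, while lbl, bap and C15 are below 0 in every misexpression, also after rescaling.

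Of the genes of the class IV sensory neuron type, in which kn is a known regulator, ppk and ppk26 were apart in opposite directions with col and with lbe. Of the 7 genes listed, ppk and ppk26, which encode subunits of a mechanically gated sodium channel, and Gr28b, a gustatory receptor family gene that also serves light sensing, were 2-fold higher in col at AFT, where 1.91% of all genes were, and none was lower. In lbe at AFT, ppk and ppk26 were 2-fold lower, where 1.99% of all genes were, and none was higher. With a pseudocount of 5 both fell short of 2-fold in lbe, at -0.94 for ppk and -0.85 for ppk26, and Gr28b fell short in col, at 0.60. In col + lbe at AFT only ppk26 was 2-fold higher, where 3.33% of all genes were (just short of it with a pseudocount of 5), and in ap + eya none was apart at either stage. The level of ppk at AFT was 30.5 TPM in col, 2.64 TPM in lbe, 16.9 TPM in col + lbe and 8.68 TPM in ap + eya, against 9.65 TPM in the control. That of ppk26 was 32.8 TPM in col, 4.05 TPM in lbe, 27.6 TPM in col + lbe and 12.7 TPM in ap + eya, against 11.3 TPM in the control. At AFT both were thus lowest in lbe, as kn was, and highest in col, whereas kn was highest in col + lbe.

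The list median in col at AFT was 0.36 where all genes had -0.10, and in lbe at AFT it was -0.38 where all genes had -0.13. At St16 ppk, ppk26 and Gr28b were low, and Gr28b was the single member of the list 2-fold apart from the control, at 2.17 TPM in col and 2.34 TPM in col + lbe, against 0.419 TPM in the control. The level of ppk at St16 was 4.06 TPM in col and 0.931 TPM in lbe, against 2.62 TPM in the control, which are log2 differences of 0.48 in col and -0.91 in lbe. In col + lbe at St16, where kn was at 81.0 TPM, ppk was below the control at 1.77 TPM (-0.39). There ppk26 was at 1.90 TPM, against 1.75 TPM in the control (0.08). The transcription factor genes ct and ab and the genes spas and dar1 were not 2-fold apart in any misexpression. For example, ct, which encodes a homeodomain factor, was at 13.5 TPM in col and 12.4 TPM in lbe at AFT, against 10.3 TPM in the control. In col at AFT 4 of the 7 genes were above 0, and 3 were below: ab (-0.21), spas (-0.28) and dar1 (-0.27).

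The genes that feed into Apterous neuron specification showed no member 2-fold apart in any of the 8 comparisons with the control, with 9 to 11 of 11 genes compared, and after median-ratio rescaling hth alone was, in lbe at AFT. Over all genes, the share 2-fold higher in those comparisons was between 0.255% and 3.33%, and the share 2-fold lower between 0.275% and 4.02%. Antp, a Hox gene that acts upstream of col there, was at 34.5 TPM in col and 35.3 TPM in lbe at St16, against 34.1 TPM in the control. The gene hth, which encodes a homeodomain cofactor of Hox proteins, was higher than the control in several misexpressions. It was at 193 TPM in col + lbe and 171 TPM in ap + eya at St16, against 107 TPM in the control. At AFT, hth was at 106 TPM in col, 119 TPM in lbe, 70.1 TPM in col + lbe and 113 TPM in ap + eya, against 64.1 TPM in the control. The gene cas, which encodes a zinc finger factor of late neuroblasts, was below the control in several of them. It was at 11.1 TPM in col + lbe and 12.2 TPM in ap + eya at St16, against 18.7 TPM in the control. At AFT, cas was at 7.55 TPM in col, 3.68 TPM in lbe, 10.2 TPM in col + lbe and 3.94 TPM in ap + eya, against 7.52 TPM in the control. Its log2 difference in lbe at AFT was -0.86, beside 0.88 for hth. Among the 6 genes on the output side, none was 2-fold apart in col or in lbe at either stage, although Nplp1 was 2-fold higher in col at AFT after median-ratio rescaling. In col + lbe, ap, eya and Nplp1 were 2-fold higher at St16, where 0.428% of all genes were. At AFT, where 3.33% of all genes were, dimm joined them, and no gene was lower at either stage. In ap + eya, the undriven genes of this list had none 2-fold apart.

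Muscle and heart factors were listed because col and the ladybird genes mark particular muscle or cardiac precursors, though not every listed factor marks the same cells. In col + lbe 3 muscle identity genes were 2-fold apart, and no cardiac gene was in any comparison. The share of compared genes 2-fold higher and 2-fold lower in ap + eya was 0.427% and 1.18% at St16, and 1.85% and 2.60% at AFT. Of 13 muscle identity genes, slou, ap and Six4 were 2-fold higher in col + lbe at both stages. Over all genes 0.428% were at St16 and 3.33% at AFT. None of the list was 2-fold lower in any misexpression. Six4 also lay just past the 2-fold limit at AFT in lbe (1.01) and ap + eya (1.06), where 1.48% and 1.85% of all genes were 2-fold higher. Its levels there were low, at 2.04 TPM in lbe and 2.15 TPM in ap + eya, against 0.505 TPM in the control. After rescaling Six4 was 2-fold higher in col at AFT too. The lists overlap: the calls of slou and ap are the same ones given above for the homeobox cluster and for the Apterous output genes. Six4, a homeobox gene, was at 17.9 TPM in col + lbe at St16, against 2.30 TPM in the control. The mesodermal gene nau was at 8.91 TPM in col and 9.24 TPM in lbe at St16, against 11.1 TPM in the control. Of the 10 cardiac factors none was 2-fold apart. At St16 all 10 were below 0 in col and in col + lbe, 9 in lbe and 7 in ap + eya. The St16 medians were -0.15 in col, where all genes had -0.08, and -0.21 in col + lbe, where all genes had -0.05. They were -0.08 in ap + eya (all genes -0.02) and -0.05 in lbe (all genes -0.07). After rescaling, 8 in col, 10 in col + lbe, 7 in ap + eya and 5 in lbe were below 0 at St16. At AFT all 9 compared were below 0 in lbe, 8 in col, and 7 each in ap + eya and col + lbe. The factors of row 5 and columnar neuroblasts, such as gsb, wg and vnd, also had none 2-fold apart. At St16 all 7 compared were below 0 in col and col + lbe, or 6 in each after rescaling. In lbe and in ap + eya 5 of the 7 were, or 3 and 4 after rescaling. The St16 medians were -0.16 in col (all genes -0.08) and -0.30 in col + lbe (all genes -0.05). They were -0.02 in ap + eya (all genes -0.02) and -0.02 in lbe (all genes -0.07). At AFT all 6 compared were below 0 in lbe, col and ap + eya, and 4 in col + lbe. The 4 muscle markers, Mhc, Act57B, Tm2 and bt, summed to between 7322 and 8594 TPM in the misexpressions at St16, against 9341 TPM in the control. At AFT they summed to between 12351 and 12988 TPM in the misexpressions, against 15667 TPM in the control. Act57B made up most of each sum, with 11186 TPM in the AFT control, and not every marker was highest in the control. At AFT bt was at 77.8 TPM in lbe and 76.1 TPM in ap + eya, against 72.5 TPM in the control, but was lower in col and col + lbe. At St16 Mhc (780 against 684 TPM) and bt (51.1 against 37.5 TPM) were above the control in ap + eya alone. The control was also highest for lbl, and the part of muscle RNA in the lbl values was not tested.

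The genes whose levels ran most like each member over the 10 means were found by Pearson's r of log2(TPM + 1), centred within each stage, among named genes that reached 5 TPM in both tables. The means share a table and a control within each stage, so r is a description of likeness only. The genes were ranked on these same means, so their levels given below follow from that choice and are not a separate result. For kn the most alike was Oaz (r = 0.98, Spearman's rho 0.92), a zinc finger gene whose rat counterpart was named for its binding to Olf/EBF proteins, the vertebrate relatives of kn. At St16 Oaz was at 5.50 TPM in col, 2.22 TPM in lbe, 6.61 TPM in col + lbe and 2.48 TPM in ap + eya, against 2.30 TPM in the control. At AFT it was at 3.00 TPM in col, 0.860 TPM in lbe, 6.01 TPM in col + lbe and 1.16 TPM in ap + eya, against 1.41 TPM in the control. Both genotypes with a col transgene were above the other 3 at both stages, and col + lbe was 2-fold above the control at both. That order follows from choosing Oaz for its likeness to kn, and at AFT Oaz reached 5 TPM in col + lbe alone. Next came the potassium channel gene Irk3 (r = 0.94), the homeobox gene unc-4 (0.94) and the RNA-binding protein gene bru1 (0.89). The level of unc-4 at AFT was 2.88 TPM in col, 1.76 TPM in lbe, 5.66 TPM in col + lbe and 2.08 TPM in ap + eya, against 2.41 TPM in the control, with none 2-fold apart. It too reached 5 TPM at AFT in col + lbe alone. The least alike were Msp300, which encodes a large nuclear envelope and muscle protein (-0.88), and l(3)72Dn (-0.84).

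**Figure D4:**
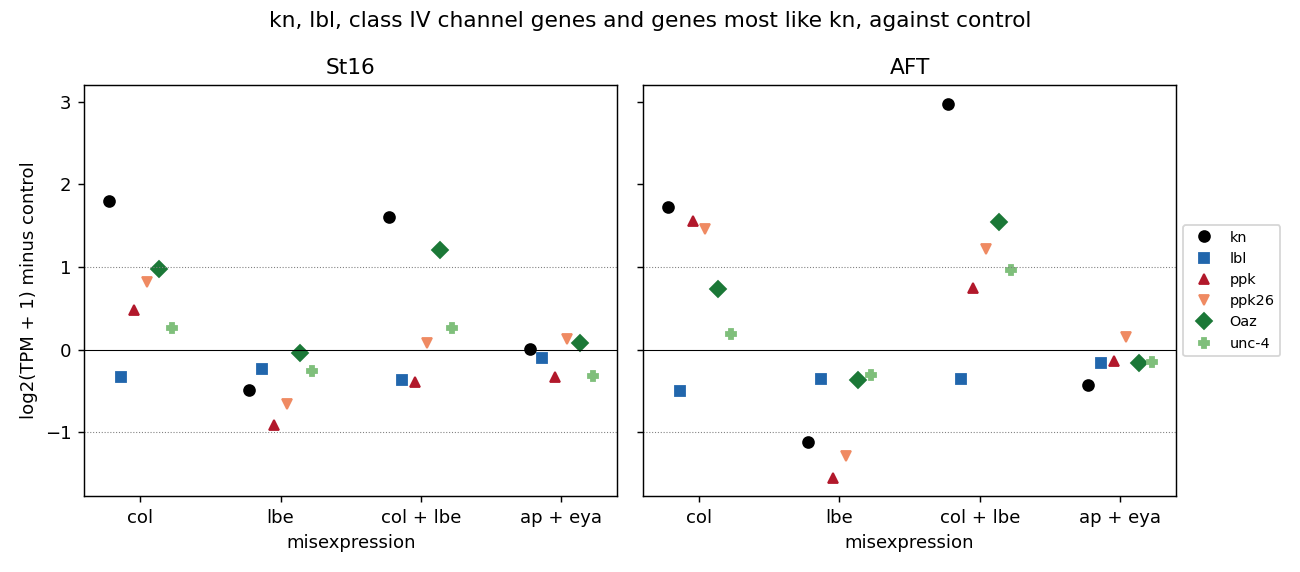
Difference from the control in log2(TPM + 1) (y axis) in each misexpression (x axis) at St16 (left) and AFT (right) for kn, lbl, the channel genes ppk and ppk26, and 2 genes with levels much like those of kn; points are differences of 2 means, and dotted lines mark 2-fold. In lbe at AFT kn, ppk and ppk26 lie below -1 (though not with a pseudocount of 5), and lbl lies below 0 throughout. Oaz and unc-4 lie above 0 in col and col + lbe at both stages, which follows from choosing them for likeness to kn.

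For lbe the most alike were SmD1 (r = 0.92), a splicing factor gene, the forkhead gene fd59A (0.88), the RNA exosome gene Csl4 (0.87) and the mitochondrial ribosomal protein gene mRpS34 (0.87). Of these, fd59A was 2-fold higher in lbe at both stages, where 0.255% of all genes were at St16 and 1.48% at AFT. Its Spearman's rho with lbe was only 0.49. The St16 level of fd59A was 15.9 TPM in lbe and 7.68 TPM in col + lbe, against 4.71 TPM in the control. At AFT fd59A was at 7.53 TPM in lbe and 5.58 TPM in col + lbe, against 2.64 TPM in the control, and it reached 5 TPM in those genotypes alone. The other 3 differed by little, as SmD1 did with 53.0 TPM in lbe at St16, against 51.4 TPM in the control. The least alike were the homeobox genes scro (-0.93) and HGTX (-0.92). HGTX, which acts in motor neuron specification, was at 7.26 TPM in lbe and 5.18 TPM in col + lbe at St16, against 12.1 TPM in the control. At AFT it was at 3.52 TPM in lbe and 3.19 TPM in col + lbe, against 7.41 TPM in the control. In col + lbe HGTX lay just past the 2-fold limit at both stages, at -1.09 at St16 and -1.01 at AFT. Over all genes 1.99% were 2-fold lower in col + lbe at St16 and 4.02% at AFT. At AFT HGTX reached 5 TPM in the control and in ap + eya (5.97 TPM) alone.

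For lbl the most alike were Tsf2 (r = 0.92), a transferrin gene, the muscle alpha-actinin gene Actn (0.91), the thrombospondin gene Tsp of muscle attachment sites (0.91) and the palmitoyltransferase gene app (0.90). All 4 differed from the control by less than 2-fold in every misexpression, as lbl did. At AFT Actn was at 331 TPM in col (-0.36) and 342 TPM in lbe (-0.31), against 424 TPM in the control. The log2 difference of lbl at AFT was -0.50 in col and -0.35 in lbe. The least alike were NP15.6 and ATPsynO (both -0.86), which encode parts of the mitochondrial respiratory chain and of ATP synthase. Among the 3 genes themselves, r was 0.14 between kn and lbe, -0.55 between kn and lbl and -0.46 between lbe and lbl.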

How the data were processed

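RNA from whole embryos was sequenced in 30 samples, as single reads of 50 bp at St16 and paired reads of 150 bp at AFT, each sample with between 30 and 50 M of them, per the labels' protocols. The authors deposited TPM made with kallisto 0.43.1 on build BDGP6, per the submitters' processing notes, as 1 column per genotype and stage. The sources used here do not say how transcript values were turned into gene values. The columns hold means: multiplied by 3, 56.2% of values between 10 and 100 TPM at St16 came within 0.02 of a whole unit of the 4th decimal place, and 21.2% did unmultiplied. Read depth cannot be recovered from TPM, so it is unknown for each value and no interval is given.

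With 1 mean per group no test across replicates was possible. Differences of log2(TPM + 1) were computed with a minimum of 1 TPM in either group and counted at 2-fold. The 7 gene lists and the members were chosen with earlier results of these data known. Named genes are the members, ap and eya, members of the lists (at most 6 that are 2-fold apart per list and comparison, otherwise up to 4 examples) and, per member, the 4 genes of highest and 2 of lowest r whose symbol is a name and not a CG or CR code. Driven genes were left out of list counts. Of the symbols, 12874 at St16 and 12904 at AFT were found in the BDGP6.54 annotation, the source of all positions, and the tables hold no coordinates. The calls and the likeness measure were checked on simulated data. Python 3.11.15, pandas 2.3.3 and numpy 2.4.6 were used. Sequences were not used here.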

Additional observations from a re-analysis of the deposited data

Results flagged for a closer look

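The difference of kn between col + lbe and col had opposite signs at the 2 stages: -0.19 on the log2 scale at St16 and 1.25 at AFT. These are differences of the authors' means, so the difference between the stages was not tested.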

How the results depend on the processing

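The deposited means allow no leaving out of replicates. No paired analysis was possible because each genotype has 1 column per stage. With no spread between replicates, an alternative was judged by whether a value kept its side of the 2-fold limit: of 274 recomputed values of kn, lbe and lbl 267 did, among them all 70 of lbe and all 102 of lbl. Of these, 6 values of lbl turned sign below 2-fold. For kn in lbe at AFT (-1.12), a pseudocount of 5 gave -0.78 and ap + eya as the reference, chosen after seeing the data, gave -0.70, both under 2-fold, and -1.12 does not reach 3-fold. The range over its 7 alternatives was -2.23 to -0.70. The kn difference of col + lbe from col at AFT, 1.25, does not reach 3-fold either. Set against the median of the 4 other genotypes, which for kn includes driven genotypes, kn was at -1.50 in lbe at St16, -1.01 in ap + eya at St16, where it had been 0.01, and -1.53 in ap + eya at AFT.

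Counts of genes 2-fold apart from the control moved by over 1.5 times in 15 of 40 recomputations. At St16 a pseudocount of 0.1 gave 127 genes in col, 117 genes in lbe, 431 genes in col + lbe and 246 genes in ap + eya, and a pseudocount of 5 gave 18 genes in col, 18 genes in lbe, 133 genes in col + lbe and 79 genes in ap + eya. A filter of 5 TPM at St16 gave 39 in col and 32 in lbe. At AFT a pseudocount of 5 gave 268 genes in col, 189 genes in lbe, 459 genes in col + lbe and 255 genes in ap + eya, and a pseudocount of 0.1 gave 551 in lbe. In lbe at AFT 148 genes were higher and 199 lower, or 179 higher and 155 lower after median-ratio rescaling. List counts moved in 15 of 168. With a pseudocount of 5, no class IV gene was 2-fold lower in lbe at AFT. By Spearman's rho, 2 of the 4 genes most like kn, 2 of 4 for lbl and 0 of 4 for lbe were the same.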

Other observations

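The chromosomal surroundings of kn were examined after its levels had been seen. Of 24 other genes annotated on 2R within 50000 bases of kn, 20 were listed, and none of the 15 compared at St16 was 2-fold apart in any misexpression. BEAF-32, an insulator protein gene beside kn, was at 37.8 TPM in col and 35.7 TPM in col + lbe at St16, against 37.8 TPM in the control. At AFT, 4 of 18 were 2-fold higher in col + lbe, where 3.33% of all genes were: the antimicrobial peptide genes Dro, AttA and AttB and the phosphate transporter gene NaPi-T. AttB was also 2-fold higher in col, at 3.95 TPM, and in ap + eya, at 4.57 TPM, against 0.313 TPM in the control.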
